A study of Mus musculus with 5 samples.

Results

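Transcripts of the hypoxia pathway were followed in pluripotent embryonic stem (ES) cells of the mouse that lack Dicer, the enzyme that processes precursor hairpins into working microRNAs. The 10 genes are the oxygen-sensing factors Hif1a, Epas1, Egln1 and Egln3 and the non-glycolytic target genes Vegfa, Kdm3a, Ak4, Ndrg1, P4ha1 and Bnip3. These 10 genes, of 19938 with a probe set of a single gene symbol, were picked by name with earlier results of the same comparison known. Their differences between genotypes are therefore given as a description, with no test. Each gene is read through its brightest probe set, by the mean of the 5 arrays.

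The Dicer-deficient group holds 2 arrays and the WT (wild type) group 3 arrays, each from an asynchronous culture that the series' design text calls a biological replicate. Both genotypes were grown without feeders in serum-containing LIF medium mixed with N2B27+2i medium, so the kinase inhibitors of that serum-free medium were present in every group. The labels name neither a strain, a parental line nor the Dicer allele, so what Dicer loss does and what else distinguishes the lines cannot be told apart. The early G1 cells and a further Dicer-deficient culture of the design text were not analysed here. The sources used here do not give the oxygen in the incubators.

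Hypoxia-inducible factors (HIFs) are pairs of an oxygen-regulated alpha subunit, such as the products of Hif1a and Epas1, and a stable beta subunit, the product of Arnt or Arnt2. When oxygen is plentiful, the prolyl hydroxylases encoded by Egln1, Egln2 and Egln3 mark the alpha subunit, and the VHL ubiquitin ligase then has it destroyed. When oxygen is scarce the alpha subunit persists, enters the nucleus and drives genes of glycolysis, vessel growth, matrix modification and mitochondrial turnover. Much of this control acts on protein, which the arrays do not read. In whole cultures, fewer cells expressing a gene and less RNA in each cell cannot be told apart.

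Signals are the authors' normalized values on a log2 scale, and the log base was read from the values, since the sources used here do not give it. Array medians lay between 5.39 and 5.45, and upper quartiles between 7.25 and 7.34. All 10 genes had mean signals above the median of all values, 5.41, and their lowest single value was 6.26. Genotypes were compared with limma, a linear model with moderated variances over all genes, and genes with a Benjamini-Hochberg adjusted p under 0.05 are called. Dicer1 itself had signals of 7.20 and 6.84 in Dicer-deficient cells, against 8.84, 8.82 and 8.85 in WT cells (log2 difference -1.82, limma adjusted p = 0.000129). The labels do not say which part of Dicer1 is missing, so whether its probe set covers that part is unknown here. The ES cell markers were present on every array: all 14 listed had means above that median. Of these 14, 4 fell in limma and 0 rose (28.6% called, median difference -0.23), with Esrrb, Tdgf1, Klf4 and Lin28a the ones that fell. Over all genes 17.1% were called (8.48% higher and 8.60% lower), with a median difference of 0.01. In a fit of the 11171 genes with means at or above the median of all values, 3661 were called. Nothing is therefore read from the 28.6%. The part of these ES cell marker falls in the differences below was not tested. Epas1 and Vegfa are also known from vessels, so markers of endothelium were read too. Of 12, 7 had means above the median of all values, 3 rose (Pecam1, Kdr and Robo4) and 2 fell (Tek and Egfl7) in limma, and the list averaged 5.67 and 5.74 on the Dicer-deficient arrays, against 5.62 to 5.75 on the WT arrays. The brightest endothelial marker, Pecam1, had 8.87 and 8.90 in Dicer-deficient cells, against 8.16, 8.21 and 8.20 in WT cells, whereas Cdh5, Tie1 and Emcn had signals below 5.41 on every array. The part of the endothelial markers in the Epas1 and Vegfa differences was not tested. Among feeder fibroblast markers 1 of 11 rose (Vim) and 0 fell, among trophectoderm markers 3 of 10 rose (Gata3, Krt8 and Krt18) and 0 fell, and among primitive endoderm markers 2 of 10 fell (Lama1 and Lamb1) and 0 rose, all in limma. The shares called were 41.7% of endothelial, 9.09% of fibroblast, 30% of trophectoderm and 20% of primitive endoderm markers, against 17.1% of all genes. Of these 15 called markers, 6 (Tdgf1, Lin28a, Pecam1, Gata3, Krt8 and Lamb1) stayed called without each array in turn, and the other 9 lost their call without Dicer-deficient array 2, some of them without other arrays too.

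The 10 genes divided evenly: 5 were higher in Dicer-deficient cells (Epas1, Egln3, Kdm3a, Ak4 and Ndrg1) and 5 were lower (Hif1a, Egln1, Vegfa, P4ha1 and Bnip3). For every one of the 10, the Dicer-deficient signals lay outside the WT range, a separation seen for 39.9% of all genes, 20.0% with higher and 19.9% with lower signals. In limma's fit over all genes 7 of the 10 had an adjusted p under 0.05, 4 of them higher and 3 lower, against 17.1% of all genes called (8.48% higher and 8.60% lower). Since the choice of genes drew on this contrast, nothing is read from either count. The count of 7 became 3 without Dicer-deficient array 1 and 3 without array 2. The median difference over the 10 genes was -0.06 and that over all genes 0.01, while the median absolute differences were 0.84 and 0.12.

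**Figure D1:**
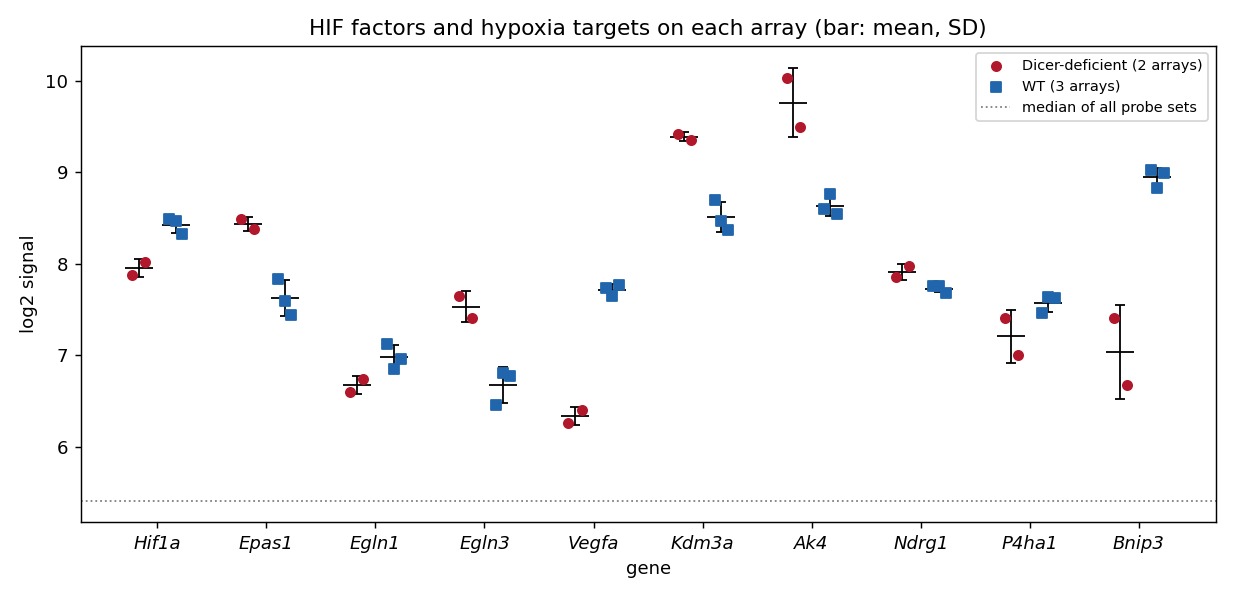
Log2 signal (vertical axis) of each of the 10 genes (horizontal axis) on the 2 Dicer-deficient arrays (circles) and the 3 WT arrays (squares); horizontal bars are group means, vertical bars SDs, and the dotted line is the median of all values, 5.41. In each gene the circles and squares do not overlap; the widest separation is in Bnip3 and the narrowest in P4ha1 and Ndrg1.

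The alpha subunits differed in opposite directions. Hif1a, the broadly expressed alpha subunit, had signals of 7.88 and 8.02 in Dicer-deficient cells, against 8.49, 8.46 and 8.32 in WT cells. Its highest Dicer-deficient value lay below its lowest WT value, and the log2 difference was -0.47 (standard error, SE, 0.0905), a level 1.39-fold lower. Epas1, the alpha subunit best known from endothelium and the kidney's erythropoietin-producing cells, had 8.49 and 8.38 in Dicer-deficient cells, against 7.83, 7.59 and 7.44 in WT cells. Every Dicer-deficient signal of Epas1 was above every WT signal. Its mean was 8.44 ± 0.0778 (SD, n = 2) in Dicer-deficient cells and 7.62 ± 0.197 (SD, n = 3) in WT cells, a difference of 0.82 (SE 0.12), or 1.76-fold higher. Hif3a, the remaining alpha subunit gene, had 5.07 and 5.41 in Dicer-deficient cells, against 5.35, 5.28 and 5.45 in WT cells, so its groups overlapped (difference -0.12, limma adjusted p = 0.607).

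The hydroxylases that read oxygen also differed from one another. Egln1, which encodes the main hydroxylase of HIF alpha subunits at normal oxygen, had 6.60 and 6.74 in Dicer-deficient cells, against 7.12, 6.85 and 6.96 in WT cells. The groups were close, with 6.74 beside 6.85, and the difference was -0.31 (SE 0.102), with a range of -0.38 to -0.24 over fits that lacked 1 array. Egln3, a hydroxylase gene that is itself induced by HIF, had 7.65 and 7.41 in Dicer-deficient cells, against 6.45, 6.80 and 6.77 in WT cells. Here the Dicer-deficient cultures were both higher, by 0.86 (SE 0.13), or 1.81-fold. Egln2, the other paralog, had 8.42 and 8.33 in Dicer-deficient cells, against 8.23, 8.14 and 8.19 in WT cells, a difference of 0.19 that did not pass the test (limma adjusted p = 0.168).

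Around these factors, 16 other genes of the oxygen-sensing machinery were measured, with 2 called higher, 1 called lower and 13 not called, and with a median difference of 0.00 against 0.01 over all genes. The share called, 18.8%, lay near the 17.1% of all genes, many of them dim. With dim genes (means below the median of all values) left out, 3 of 15 were called, against 3661 of 11171 genes. Arnt2, a beta subunit best known from neural tissue, had 6.89 and 7.04 in Dicer-deficient cells, against 5.81, 5.72 and 5.84 in WT cells. It was 2.26-fold higher (log2 difference 1.18, SE 0.086, limma adjusted p = 0.0002). Hif1an, whose product hydroxylates an asparagine of HIF alpha subunits and so weakens their activity, had 8.59 and 8.79 in Dicer-deficient cells, against 7.84, 7.90 and 7.87 in WT cells. It was 1.77-fold higher (limma adjusted p = 0.000894), and, as with Arnt2, its call held when each array was left out. Rbx1, the RING subunit shared by the VHL ligase and other cullin ligases, was called lower (difference -0.44, limma adjusted p = 0.0359). That call was lost in most fits that lacked an array: the limma adjusted p was 0.123 and 0.287 without Dicer-deficient array 1 or 2, and 0.112 and 0.136 without WT array 1 or 2. Moreover, the probe set used for Rbx1, a gene of chromosome 15, lies among probe sets of chromosome 17 genes in the order of probe set numbers. Its other probe set, among those of chromosome 15, differed by -0.17 with overlapping groups. Differences of the uncalled genes, among them Vhl, Arnt, Cul2, Ep300 and Cited2, lay between -0.12 and 0.21.

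HIF dimers bind a short core, ACGTG or GCGTG, in promoters and enhancers. RefSeq start-site windows of GRCm38.p6 (250 bases before to 50 after each annotated start) were matched by symbol for 8 of the 10 genes, with 14 windows in all. Printed below are the most upstream windows of the genes with the largest falls (Bnip3 and Vegfa) and the largest rises (Ak4 and Kdm3a) among these 8, to set the core motif beside opposite differences. Capitals mark every ACGTG or GCGTG on either strand (CACGT or CACGC on the strand shown), and overlapping matches were counted separately. The windows are chr7:138909457-138909756 on the minus strand for Bnip3, chr17:46032328-46032627 on the minus strand for Vegfa, chr4:101419039-101419338 on the plus strand for Ak4 and chr6:71632868-71633167 on the minus strand for Kdm3a.
Bnip3: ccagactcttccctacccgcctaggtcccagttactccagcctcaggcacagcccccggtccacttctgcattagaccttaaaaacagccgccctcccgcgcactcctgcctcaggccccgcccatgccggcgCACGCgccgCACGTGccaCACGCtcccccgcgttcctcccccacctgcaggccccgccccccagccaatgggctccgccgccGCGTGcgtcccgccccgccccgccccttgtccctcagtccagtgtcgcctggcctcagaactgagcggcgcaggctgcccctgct
Vegfa: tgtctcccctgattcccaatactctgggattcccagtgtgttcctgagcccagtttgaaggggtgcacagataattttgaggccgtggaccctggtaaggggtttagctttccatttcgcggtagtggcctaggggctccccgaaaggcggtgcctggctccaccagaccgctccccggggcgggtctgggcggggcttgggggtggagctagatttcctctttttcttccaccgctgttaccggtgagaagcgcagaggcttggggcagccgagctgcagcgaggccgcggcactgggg
Ak4: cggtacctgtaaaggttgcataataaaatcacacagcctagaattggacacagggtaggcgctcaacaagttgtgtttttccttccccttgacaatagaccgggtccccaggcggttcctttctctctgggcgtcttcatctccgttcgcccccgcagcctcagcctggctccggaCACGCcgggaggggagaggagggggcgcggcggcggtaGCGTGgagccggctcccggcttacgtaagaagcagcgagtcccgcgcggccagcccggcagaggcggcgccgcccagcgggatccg
Kdm3a: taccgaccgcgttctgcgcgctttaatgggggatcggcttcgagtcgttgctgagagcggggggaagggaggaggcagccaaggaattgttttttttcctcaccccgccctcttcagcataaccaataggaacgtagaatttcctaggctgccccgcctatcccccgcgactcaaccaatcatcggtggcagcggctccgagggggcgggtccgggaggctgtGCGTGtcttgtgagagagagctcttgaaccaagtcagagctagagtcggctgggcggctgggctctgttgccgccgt
Bnip3 held 5 matches, of which the 2 of ACGTG overlap in a palindrome, Ak4 held 2, Kdm3a held 1 and this Vegfa window held 0. A second Vegfa window, at an internal start, held 2. The most downstream Ak4 window held 3, and the other Kdm3a windows held 0 each. The counts thus depend on the start chosen. Of the 14 windows 11 held at least 1 match, and of the 32851 windows searched 43.8% did. Some of the 14 windows overlap, among them Ak4 windows that share the same 2 matches. The 14 are therefore not independent, and nothing is read from the contrast with 43.8%. A match is a match of letters only, and the window of Vegfa says nothing of sequence outside it.

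Vegfa and Bnip3 had the largest falls of the 10 genes. Vegfa, the growth factor that draws in blood vessels, had 6.26 and 6.40 in Dicer-deficient cells, against 7.73, 7.65 and 7.77 in WT cells. The groups lay far apart beside the small spread within each (6.33 ± 0.099, SD, n = 2, in Dicer-deficient cells and 7.72 ± 0.0611, SD, n = 3, in WT cells). The difference of -1.39 (SE 0.0848) is a level 2.61-fold lower, and over fits that lacked 1 array it ranged from -1.46 to -1.32. Bnip3, a receptor on the outer mitochondrial membrane that recruits the autophagy machinery, had 7.40 and 6.67 in Dicer-deficient cells, against 9.02, 8.83 and 8.99 in WT cells. Both Dicer-deficient signals were far below the WT range but lay apart from each other, with an SD of 0.516. The difference was -1.91 (SE 0.192), a level 3.76-fold lower; without Dicer-deficient array 1 it was -2.28 and without array 2 it was -1.55.

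P4ha1, the catalytic subunit of the collagen prolyl hydroxylase, which lets collagen fold into a stable triple helix, had 7.41 and 7.00 in Dicer-deficient cells, against 7.46, 7.63 and 7.62 in WT cells. The groups almost touched, at 7.41 and 7.46. Its difference of -0.37 (SE 0.129) depended on the culture, at -0.57 without Dicer-deficient array 1 and -0.16 without array 2.

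Ak4 and Kdm3a had the largest rises. Ak4, an adenylate kinase of the mitochondrial matrix, had 10.03 and 9.49 in Dicer-deficient cells, against 8.60, 8.76 and 8.54 in WT cells. All Dicer-deficient signals exceeded all WT signals, and the difference was 1.13 (SE 0.156), or 2.18-fold, with 0.86 without Dicer-deficient array 1 and 1.40 without array 2. Kdm3a, a demethylase of histone lysines, had 9.42 and 9.35 in Dicer-deficient cells, against 8.69, 8.47 and 8.37 in WT cells. Its Dicer-deficient values differed little from each other, and the difference between genotypes was 0.88 (SE 0.107), or 1.83-fold. Ndrg1, a stress-responsive gene named for its repression by N-myc, had 7.85 and 7.97 in Dicer-deficient cells, against 7.75, 7.75 and 7.68 in WT cells. That is the smallest difference of the 10, 0.18 (SE 0.0803), or 1.14-fold.

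Bnip3 and Ak4 are the 2 genes of the 10 with more than 1 probe set, and in both the brighter one, used above, lies among probe sets of another chromosome. Numbers of probe sets on the platform follow chromosomal order. The 10 neighbours on each side were pooled, and for 96.8% of 21698 probe sets their commonest chromosome was the gene's own. The brighter Bnip3 probe set had 20 of 20 neighbours on chromosome 14, although the gene lies on chromosome 7, and the brighter Ak4 probe set had 20 of 20 on chromosome 2, although the gene lies on chromosome 4. The other probe set of each gene had 20 of 20 neighbours on the gene's own chromosome.

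With the chromosome 7 probe set, Bnip3 had 6.81 and 6.91 in Dicer-deficient cells, against 8.20, 8.08 and 8.13 in WT cells. The fall was again clear of the spread in each group but smaller, -1.28, or 2.42-fold lower, and the gap between the Dicer-deficient cultures was narrower (SD 0.0707 in place of 0.516). By this probe set the fall of Bnip3 was smaller than that of Vegfa, -1.39. With the chromosome 4 probe set, Ak4 had 9.01 and 8.64 in Dicer-deficient cells, against 7.76, 7.87 and 7.87 in WT cells, a difference of 0.99. Its direction and size were thus close to those of the brighter probe set. On chromosome 14, 19.7% of 699 named genes fell in limma, against 8.23% of 19157 on the other chromosomes. The 20 neighbours of the brighter Bnip3 probe set had a median difference of 0.05. Of these 20, 3 were called lower and 1 higher in limma, against 8.60% and 8.48% of all genes. The part of chromosome 14 in the difference of that probe set was not tested.

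**Figure D2:**
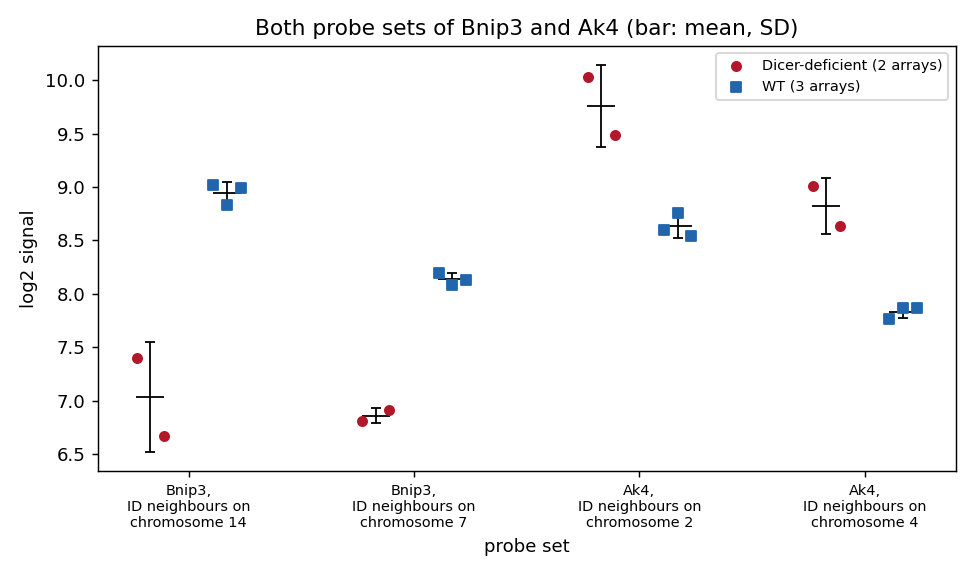
Log2 signal (vertical axis) of both probe sets of Bnip3 and of Ak4 (horizontal axis, named by the chromosome of their neighbours in probe set order) on the 2 Dicer-deficient arrays (circles) and the 3 WT arrays (squares), with mean and SD. Bnip3 is lower and Ak4 higher in Dicer-deficient cells with either probe set, and the Dicer-deficient values of Bnip3 lie closer together with the chromosome 7 probe set.

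Relatives of the 10 genes within their families were read next. Of 19 measured paralogs, 1 was called higher, 4 were called lower and 14 were not called. The share called was 26.3% against 17.1% of all genes, and the median difference 0.04 against 0.01. With dim genes left out, 7 of 12 paralogs were called, against 3661 of 11171 genes. Ndrg2 had 5.49 and 5.61 in Dicer-deficient cells, against 6.66, 6.85 and 6.81 in WT cells, 2.33-fold lower (limma adjusted p = 0.000212), whereas Ndrg1 was slightly higher. Ndrg3 and Ndrg4 had differences of 0.10 and -0.24 (limma adjusted p = 0.507 and 0.179). Vegfb, a growth factor of the same family as Vegfa, had 7.26 and 7.30 in Dicer-deficient cells, against 7.87, 7.95 and 7.89 in WT cells, 1.54-fold lower (limma adjusted p = 0.00158). The lymphatic growth factor genes Vegfc and Vegfd had differences of 0.35 and 0.40 (limma adjusted p = 0.11 and 0.0506), and Pgf, dim on every array, 0.13.

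Bnip3l, the closest relative of Bnip3 and also a mitophagy receptor, had 9.34 and 9.06 in Dicer-deficient cells, against 9.86, 9.79 and 9.68 in WT cells. It was 1.49-fold lower (limma adjusted p = 0.00948), with a limma adjusted p of 0.103 without Dicer-deficient array 2, 0.052 without WT array 1 and 0.0622 without WT array 2. The gene lies on chromosome 14 and this probe set among those of chromosome 12; its other probe set, among those of chromosome 14, differed by -0.55, close to the -0.58 given by the first. P4ha2, of the same enzyme as P4ha1, was 1.35-fold lower (limma adjusted p = 0.0323, and 0.185 and 0.247 without Dicer-deficient array 1 or 2, 0.0761 and 0.0729 without WT array 1 or 2). P4ha3 had a difference of 0.04.

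Kdm3b, which like Kdm3a encodes a histone lysine demethylase, was 1.45-fold higher (limma adjusted p = 0.0411), a call lost without any 1 of the 5 arrays (limma adjusted p from 0.0887 to 0.351). Jmjd1c, the third of that family, differed by 0.31 (limma adjusted p = 0.0515). The other adenylate kinases measured did not pass the test: Ak1 differed by -0.40 (limma adjusted p = 0.0816), Ak7 by 0.22, and Ak3, Ak5 and Ak8 by 0.03 to 0.05. The count of 5 calls among paralogs became 3 without Dicer-deficient array 1 or WT array 2, and 2 without Dicer-deficient array 2 or WT array 1. Ndrg2 and Bnip3l lie on chromosome 14, and the 17 paralogs on other chromosomes had 1 call higher and 2 lower.

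**Figure D3:**
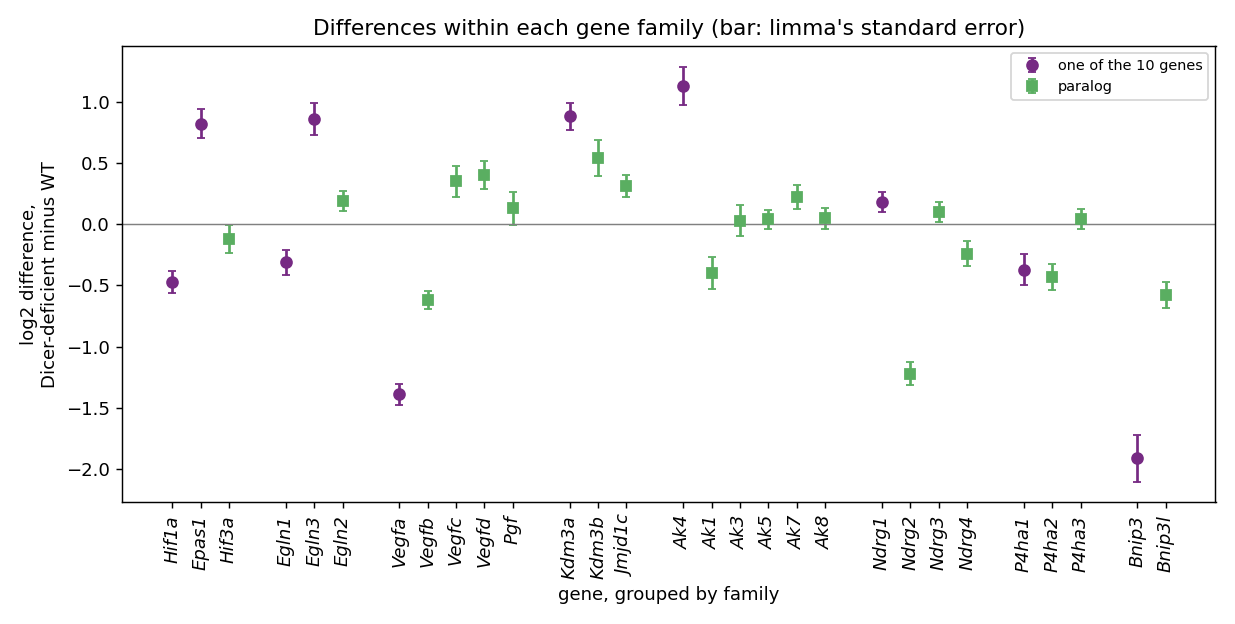
Log2 difference, Dicer-deficient minus WT (vertical axis), of the 10 genes (circles) and their paralogs (squares), grouped by family along the horizontal axis; bars are limma's standard errors. Hif1a and Epas1 lie on opposite sides of 0, as do Egln1 and Egln3; Ak4 stands above the other 5 adenylate kinases measured.

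Among 45 other reported non-glycolytic HIF targets, falls outnumbered rises: 14 fell, 2 rose and 29 missed the threshold. The shares were 31.1% lower and 4.44% higher, against 8.60% and 8.48% of all genes, and the median difference was -0.19 against 0.01 over all genes. Ddit4, a brake on mTOR signalling, had 6.28 and 6.56 in Dicer-deficient cells, against 8.40, 8.55 and 9.19 in WT cells. It was 4.9-fold lower (log2 difference -2.29, limma adjusted p = 0.000571, and 0.0509 without Dicer-deficient array 1). Plod1, a lysyl hydroxylase of collagen, had 6.79 and 7.10 in Dicer-deficient cells, against 8.33, 8.50 and 8.11 in WT cells, 2.58-fold lower (limma adjusted p = 0.000706). The 2 that rose were Plin2, which coats lipid droplets, and Igfbp3, which binds insulin-like growth factors. Plin2 had 9.42 and 9.19 in Dicer-deficient cells, against 8.29, 8.24 and 8.02 in WT cells, 2.18-fold higher (limma adjusted p = 0.000704). Igfbp3 had 7.54 and 7.57 in Dicer-deficient cells, against 6.23, 6.64 and 6.44 in WT cells, 2.17-fold higher (limma adjusted p = 0.000942, and 0.0509 and 0.0517 without Dicer-deficient array 1 or 2). Besides Ddit4, Plod1, Plod2, Bnip3l and P4ha2, 9 more genes fell, with differences from -0.89 to -0.39. The 16 calls became 5 without Dicer-deficient array 1, 7 without array 2 and 9 without WT array 2, with falls still more numerous than rises in each case (4 and 1, 6 and 1, 7 and 2).

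Glycolytic HIF targets fell more often still, with 11 lower, 1 higher and 6 not passing of 18 measured, and a median difference of -0.43. The share called was 66.7%, against 17.1% of all genes. All 18 had means above the median of all values, as did 30 of the 45 non-glycolytic targets. Without dim genes, 12 of 18 glycolytic targets fell and 2 rose, and 13 of 30 non-glycolytic targets fell and 2 rose. Of the 11171 genes then tested, 3661 were called in either direction. The glucose transporter Slc2a3 had 10.64 and 10.43 in Dicer-deficient cells, against 12.01, 12.01 and 12.00 in WT cells. The lactate exporter Slc16a3 had 6.61 and 7.55 in Dicer-deficient cells, against 8.92, 8.91 and 8.81 in WT cells. Their limma adjusted p-values were 0.000115 and 0.0021. The phosphofructokinase genes Pfkl and Pfkp, whose products commit sugar to glycolysis, were 2.18-fold and 2.07-fold lower (limma adjusted p = 0.00199 and 0.000241). The 12 calls became 7 without Dicer-deficient array 1. Vegfa, Bnip3 and P4ha1 had differences of the same sign as most called genes of both target lists, and Ak4, Kdm3a, Ndrg1 and Egln3 of the opposite sign.

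**Figure D4:**
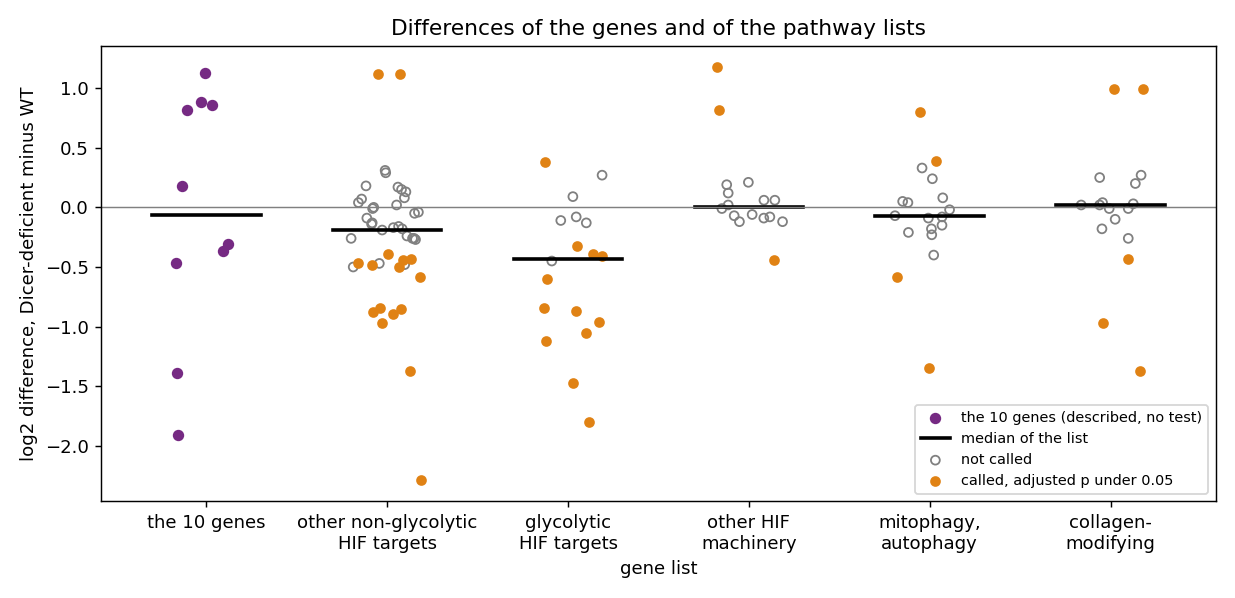
Log2 difference, Dicer-deficient minus WT (vertical axis), of the 10 genes and of the genes of 5 pathway lists (horizontal axis, sideways scatter for legibility); filled orange points passed an adjusted p of 0.05 in limma, open points did not, and black lines are list medians. The medians of the other non-glycolytic and the glycolytic HIF targets are -0.19 and -0.43, and that of the 10 genes is -0.06.

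Bnip3 and P4ha1 serve mitophagy and collagen maturation. Of 18 other mitophagy and autophagy genes, 2 rose and 2 fell (22.2% called, against 17.1% of all genes, median difference -0.08). Among the falls is that of Bnip3l, also counted with the paralogs and the non-glycolytic HIF targets. All 18 had means above the median of all values, and with dim genes left out 6 were called, against 3661 of 11171 genes. Gabarapl1, an autophagosome protein that binds mitophagy receptors, had 5.49 and 5.67 in Dicer-deficient cells, against 6.85, 7.19 and 6.74 in WT cells, 2.54-fold lower (limma adjusted p = 0.00076, and 0.0512 without Dicer-deficient array 1). Pink1, the kinase that marks damaged mitochondria, had 7.79 and 7.52 in Dicer-deficient cells, against 7.02, 6.70 and 6.84 in WT cells, 1.74-fold higher (limma adjusted p = 0.00417, or 0.0942 in the fit lacking Dicer-deficient array 1). The cargo receptor Sqstm1 was 1.31-fold higher (limma adjusted p = 0.0293), a call lost without any 1 of the 5 arrays (from 0.054 to 0.219). The 4 calls became 2 without Dicer-deficient array 1 or 2 or WT array 1 or 2.

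Of 17 other collagen-modifying enzymes, 2 rose and 3 fell (29.4% called, against 17.1% of all genes, median difference 0.02). The 3 that fell were also counted among the non-glycolytic HIF targets. Leaving out dim genes gave 4 calls among 11 of these enzymes, against 3661 among 11171 genes. Crtap, a partner of collagen prolyl hydroxylation, had 9.07 and 9.11 in Dicer-deficient cells, against 8.14, 8.12 and 8.05 in WT cells, 1.98-fold higher (limma adjusted p = 0.000251). Loxl4, of the lysyl oxidases that cross-link collagen, was 1.99-fold higher (limma adjusted p = 0.00587, and 0.14 and 0.0779 without Dicer-deficient array 1 or 2, 0.0525 without WT array 2). A dimmer probe set of Loxl4 differed by 0.29, or 1.22-fold, and the mean of both by 0.64 (limma adjusted p = 0.00383). Plod2 was 1.96-fold lower (limma adjusted p = 0.00334, and 0.1 and 0.0628 without Dicer-deficient array 1 or 2), and with Plod1 and P4ha2 made up the falls. The 5 calls became 2 without Dicer-deficient array 1 or 2 and 3 without WT array 2.

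The transcripts most like Bnip3 and Ak4 over the 5 arrays were found by the Euclidean distance between log2 profiles, each centred on its own mean. Nearest to Bnip3 was Dicer1 (distance 0.31), followed by Cecr2, Pclaf, Khdc3 and Anxa6 (0.36 to 0.44), all with differences between -1.93 and -1.61. A second, dimmer probe set of Anxa6 differed by -0.16 with overlapping groups, and the mean of both by -0.89. The second, dimmer probe set of Pclaf differed by -2.37, outside that range, and the mean of both by -2.15. Nearest to Ak4 were Ube2l6 (0.13), Vill, Gss, Lrrc31 and Scamp1 (up to 0.19), with differences between 1.11 and 1.25. In all 10 of these neighbours, as in the brighter probe sets of Bnip3 and Ak4, Dicer-deficient array 1 gave a higher signal than array 2, a feature that the distance itself favours. On the chromosome 7 probe set of Bnip3 the order was the reverse (6.81 and 6.91). These neighbours depend on the probe set: with the chromosome 7 probe set of Bnip3 and the chromosome 4 probe set of Ak4, 0 of the 5 nearest genes were the same for either.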

How the data were processed

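Biotinylated cRNA was made, per the labels' protocols, from total RNA by the Affymetrix whole-transcript method. The authors deposited a log2 signal, already normalized, for 35556 probe sets on 5 arrays. Background correction, summarisation and the log base are not given in the sources used here; the scale was read from the values, and another base would rescale every difference. No measure of background was used, so small differences of dim genes are of uncertain size. The number of arrays limits the precision.

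Arrays were grouped by title. Through GEO's platform annotation, which can be old, 21789 probe sets had 1 gene symbol, 1621 several and 12146 none; the last 2 kinds were left out. This gave 19938 genes, 999 of them with several probe sets, of which the brightest on average was used. Chromosomes came from a RefSeq gene table of GRCm38.p6.

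Genes were fitted with limma (lmFit and eBayes, 3 residual and 4.54 prior degrees of freedom), Dicer-deficient minus WT without covariates, with p-values adjusted by Benjamini-Hochberg over all 19938 genes and a threshold of 0.05. "Called", "rose" and "fell" refer to this test, which was tested on simulated data. SDs describe the arrays of a group, and SEs come from limma. Some lists share genes, among them Bnip3l and P4ha2, so the counts of different lists are not independent. An exact permutation test of 2 against 3 arrays cannot go below p = 0.1, so none is given. The 10 genes, the lists and the tests were chosen with earlier results of these data known. Genes named besides the 10 are Dicer1, up to 4 of the largest called differences in each list, all measured paralogs and the 5 nearest profiles to the largest fall and rise; other names spell out small counts, uncalled machinery genes and marker lists, and were chosen after their values were seen. Alternatives were a filter on dim genes, median centring, quantile normalization, a variance trend on intensity, the replicate number as a block, averaging the probe sets of a gene and omitting each array in turn; the other probe set of Bnip3 and Ak4, also for the nearest profiles, and lists without chromosome 14 were added after seeing the data. R 4.3.3, limma 3.58.1, Python 3.11.15, pandas 2.3.3, numpy 2.4.6 and matplotlib 3.10.9 were used.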

Additional observations from a re-analysis of the deposited data

How the results depend on the processing

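None of the 10 genes changed the sign of its difference under any alternative run. Since the choice of these 10 genes drew on this contrast, nothing is read from their count of calls under any setting. The count of calls among the 10, 7 in all, stayed at 7 under the alternatives that kept all arrays, apart from the block, and lay between 3 and 7 when any 1 array was omitted. Leaving out an array gave 972 to 2953 calls over all genes, in place of 3404, and 5 to 14 among the other non-glycolytic HIF targets (16), 7 to 10 among glycolytic targets (12) and 2 to 4 among paralogs (5). For mitophagy and autophagy genes it gave 2 to 3 (4), for collagen-modifying enzymes 2 to 5 (5) and for the HIF machinery 2 to 3 (3). With fewer arrays, and 1 array left in a group, that array is assumed to vary like the others. Correlations of the same-numbered arrays' deviations from their group means were 0.049 and 0.005. The deviations of the 2 Dicer-deficient arrays mirror each other, so these correlations cannot show whether the arrays were paired. With the replicate number as a block, which drops WT array 3, the calls were 894 over all genes, 4 of the 10, 6 non-glycolytic and 5 glycolytic targets, 2 paralogs, 2 mitophagy and 3 collagen-modifying genes. Without genes of chromosome 14 the paralogs had 3 calls, and the non-glycolytic targets 12 falls and 2 rises. The chromosome 7 probe set moved Bnip3 to -1.28. Among paralogs that missed the threshold, Vegfd and Jmjd1c passed after quantile normalization (limma adjusted p = 0.0412 and 0.0229), and Ak1 with dim genes left out (0.0417). The call of Rbx1 was lost with the mean of its probe sets (0.1). Averaging probe sets moved Loxl4 to 0.64 and Anxa6 to -0.89. Of 47 called genes named besides the 10, 27 stayed called in all 5 fits that lacked an array. Signal over background was not analysed, which limits what is said of dim genes.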
